A study of Mus musculus with 2 samples.

Results

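The 46 nuclear receptor genes described here were taken by symbol from the 43346 gene rows of the deposited tables, of which 21474 were protein-coding genes. They cover the steroid, thyroid, retinoid, fatty acid and sterol receptors and the orphan receptors, and were listed by name. These genes, and the marker, partner and target lists used below, some called fixed, were chosen with earlier results of these data known. All 46 were found in both tables. The cells were G1E-ER4, an immortalized mouse erythroid line, labelled male and postnatal with an age of 0 day. The line lacks its own functional Gata1 and carries Gata1 fused to the ligand-binding part of an estrogen receptor, so that estradiol activates the fusion. The single group was 2 polyA RNA-seq libraries, labelled biological replicates 1 and 2, both from cells given 17beta-estradiol at 10 nM for 7 hours. No untreated library was part of the series, so no receptor can be said to have risen or fallen with estradiol. Both libraries cite the same biological sample record, and the spread between them may therefore be technical.

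Nuclear receptors are transcription factors that share a zinc-finger DNA-binding domain, and most also carry a pocket for a small lipophilic ligand. Steroid receptors wait on chaperones until hormone arrives and then bind DNA as homodimers, whereas the thyroid, retinoic acid, PPAR and LXR receptors bind DNA as heterodimers with a retinoid X receptor. Orphan receptors have no settled natural ligand. In erythroid cells the glucocorticoid receptor is known for supporting progenitor expansion, and TR2 and TR4 are known as repressors of embryonic globin genes.

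Replicate 1 held 59610967 expected counts (the authors' estimate of fragments per gene) and replicate 2 held 44689405. The receptors together took 0.148% and 0.167% of them. All 9 erythroid markers were detected, including Klf1 and Epor. Gata1 is among the 9, but its row cannot be separated from the Gata1 fusion, so its detection is no evidence of cell type. None of 5 myeloid, 4 endothelial and stromal or 3 hepatocyte markers was. Of 5 megakaryocyte, 4 mast cell and 4 lymphoid markers, 3, 1 and 1 were, namely Gp1ba, Gp5 and Itga2b, then Hdc, then Ptprcap. In a bulk sample, fewer cells of a type and less RNA per cell cannot be told apart. Of the markers of other cell types tested between the libraries, 3 differed at least 2-fold past an adjusted p of 0.05 in an exact binomial test on counts, singled out after their values were seen: Mpo (0 and 24 counts) and Elane (1 and 10) were higher in replicate 2, and Apoa1 (18 and 2) in replicate 1. Those tested were 4 megakaryocyte, 2 myeloid, 2 mast cell, 2 lymphoid and 1 hepatocyte markers, and 11.2% of all genes tested were called. The part of the 3 in differences between the libraries was not tested. Pearson's r of log2(TPM + 1) between the libraries was 0.990 over protein-coding genes, a description since genes are not replicates.

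Detection required at least 1 TPM, a level scaled by transcript length and library size, in each library. By that rule 14 of the 46 receptors, or 30.4%, were detected, beside 38.3% of all protein-coding genes. The median mean TPM of the detected receptors was 20.5, and that of all detected protein-coding genes was 20.8. Of the 14, 8 had a mean TPM of at least 10 and 5 had one under 5. The 5 highest, Nr1h2, Rxrb, Ppard, Nr2f6 and Esrra, held 90.8% of the receptors' summed TPM of 932 in replicate 1 and 91.1% of 1102 in replicate 2. Their order was the same in both libraries, and no neighbours among them overlapped. Thra stood next and clear of those below it, Rara and Nr3c1 overlapped, and so did neighbours among Nr1d2, Rarg, Nr1d1 and Nr2c1, though Nr1d2 stood above Nr2c1 in both libraries.

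**Figure D1:**
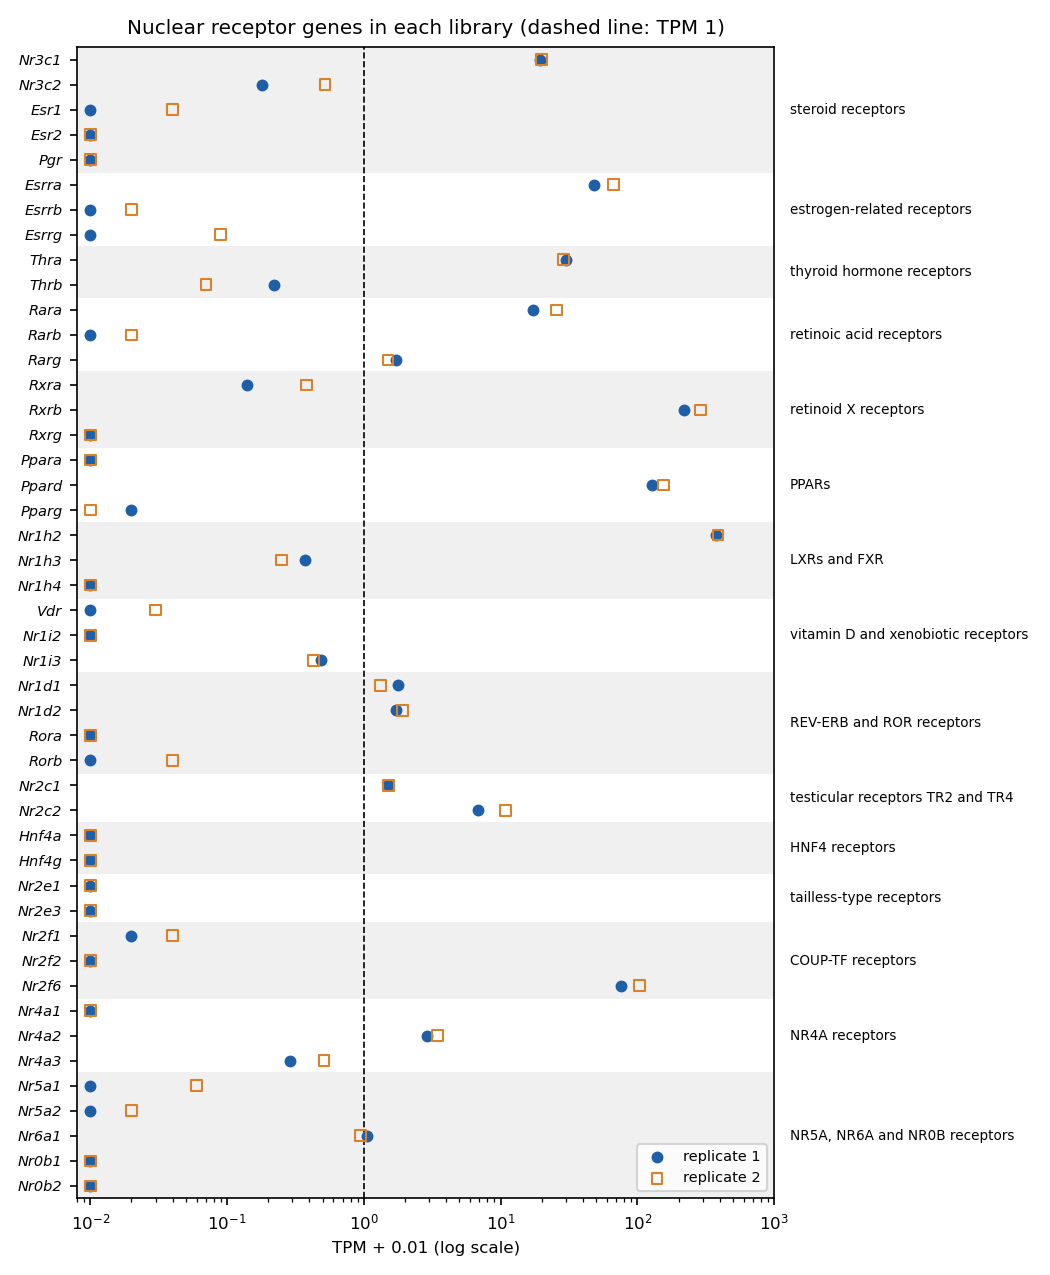
TPM of all 46 receptor genes on a log axis, with 0.01 added so that a TPM of 0 is drawn at 0.01. Filled circles are replicate 1, open squares replicate 2, and the dashed line marks a TPM of 1. The 14 detected genes lie to its right in both libraries, and Nr6a1 straddles it.

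Among the 32 receptors that were not detected, 14 had 0 counts in both libraries, 11 had 1 to 9 counts over both and 7 had at least 10. For the 14 at 0, 3 counts would have given a TPM of 0.0194 to 0.0606 in replicate 1 and 0.0277 to 0.0859 in replicate 2, a limit that covers counting error only. The authors' interval upper bounds for the 14 at 0 were wider, reaching 0.688 in replicate 1 and 0.933 in replicate 2. The gene nearest to the threshold from below was Nr6a1, the germ cell nuclear factor, at a TPM of 1.04 in replicate 1 and 0.94 in replicate 2. Those nearest from above were Nr2c1, with 1.5 in both, and Nr1d1, with 1.77 and 1.31. The authors' intervals for the 14 detected receptors all had lower bounds of at least 1 in both libraries. Of the undetected, Nr6a1 and the mineralocorticoid receptor gene Nr3c2 had upper bounds above 1 in both, at 2.06 and 2.26 for Nr6a1 and at 1.05 and 1.78 for Nr3c2. In replicate 1 alone Nr6a1 would pass.

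The sterol receptors gave the highest level of the family. Nr1h2 encodes LXRβ, a receptor for oxysterols that controls cholesterol export and lipid synthesis (chromosome 7, 44549616 to 44553951, minus strand, GRCm38). Replicate 1 had a TPM of 375 and replicate 2 one of 388, and the mean of 382 ± 9.03 (SD, n = 2) lay above 98.3% of protein-coding genes. Its paralog Nr1h3, which encodes LXRα, had a TPM of 0.36 and 0.24 from 18 and 2 counts. Nr1h4, the gene of the bile acid receptor FXR, had 0 counts in both. Nearly all signal of the LXR and FXR genes, 99.9% in each library, was thus that of Nr1h2. The 250 bases before the listed start of Nr1h2 and of Nr1h4 are shown as the most abundant receptor gene of these cells beside a silent relative, 5′ to 3′ on the gene's strand from RefSeq on GRCm38.p6, with each CG pair in capitals. That of Nr1h2 (chr7:44553966-44554215, minus strand) held 13 CG pairs and its listed start lay 17 bases from that of the leading transcript Nr1h2-203, and that of Nr1h4 (chr10:89506659-89506908, minus strand) held 5.
Nr1h2: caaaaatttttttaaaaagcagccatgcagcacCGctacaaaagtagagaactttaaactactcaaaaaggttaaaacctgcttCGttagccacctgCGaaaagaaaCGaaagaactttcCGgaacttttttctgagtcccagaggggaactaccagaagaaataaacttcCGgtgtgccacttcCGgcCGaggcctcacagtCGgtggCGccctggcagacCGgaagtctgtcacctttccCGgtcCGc
Nr1h4: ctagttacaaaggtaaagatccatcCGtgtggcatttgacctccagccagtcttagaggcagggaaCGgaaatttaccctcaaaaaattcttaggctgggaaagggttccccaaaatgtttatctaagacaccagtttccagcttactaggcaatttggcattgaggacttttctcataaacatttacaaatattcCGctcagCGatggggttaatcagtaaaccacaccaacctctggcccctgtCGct

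Of 8 fixed LXR target genes 3, or 37.5%, were detected, beside 38.3% of all protein-coding genes. They were Lpcat3 with a TPM of 263 and 277, Srebf1 with 223 and 312, and Apoe with 21.2 and 19.95. Lpcat3 remodels membrane phospholipids, Srebf1 drives lipid synthesis and Apoe carries cholesterol. The sterol transporter genes Abcg1, Abcg5 and Abcg8 had 0 counts in both libraries. The high level of Nr1h2 was accompanied by detection of some of its known targets and not of others, near the share of all genes. The 38.3% stands beside the detection counts of the other lists too.

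The retinoid X receptors, the shared partners of many other receptors, were represented by 1 gene. Rxrb (chromosome 17, 34031812 to 34038399, plus strand) had a TPM of 220 in replicate 1 but 290 in the other library, with a mean of 255 ± 49.9 (SD, n = 2). Rxra had 0.13 and 0.37, from 28 and 30 counts, and Rxrg had 0 counts in both. Rxrb thus held at least 99.87% of the RXR signal in each library. The TPM of 14 genes chosen as RXR partners summed to 552 and 600, which was 2.52 and 2.07 times the summed RXR TPM. These are the LXR, FXR, PPAR, thyroid hormone, retinoic acid, vitamin D and xenobiotic receptor genes, and the sum covers them only. Nr1h2 alone stood at 1.71 and 1.34 times Rxrb by TPM, and at 1.70 and 1.12 times by counts.

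Ppard was the only PPAR gene detected. PPARδ, its product, is a fatty acid receptor that acts on lipid oxidation in many tissues (chromosome 17, 28232700 to 28301474, plus strand). It had a TPM of 127 and 155, a mean of 141 ± 20.2 (SD, n = 2). Ppara, the gene of the receptor best known from liver, had 0 counts in both libraries, and Pparg, the adipocyte regulator, had 1 and 0. Of 10 fixed PPAR targets 4, or 40%, were detected, beside 38.3% of all protein-coding genes. The highest was the lipid droplet gene Plin2 at 27.9 and 36.3. Pdk4, Angptl4 and Fabp4 had 0 counts in both.

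**Figure D2:**
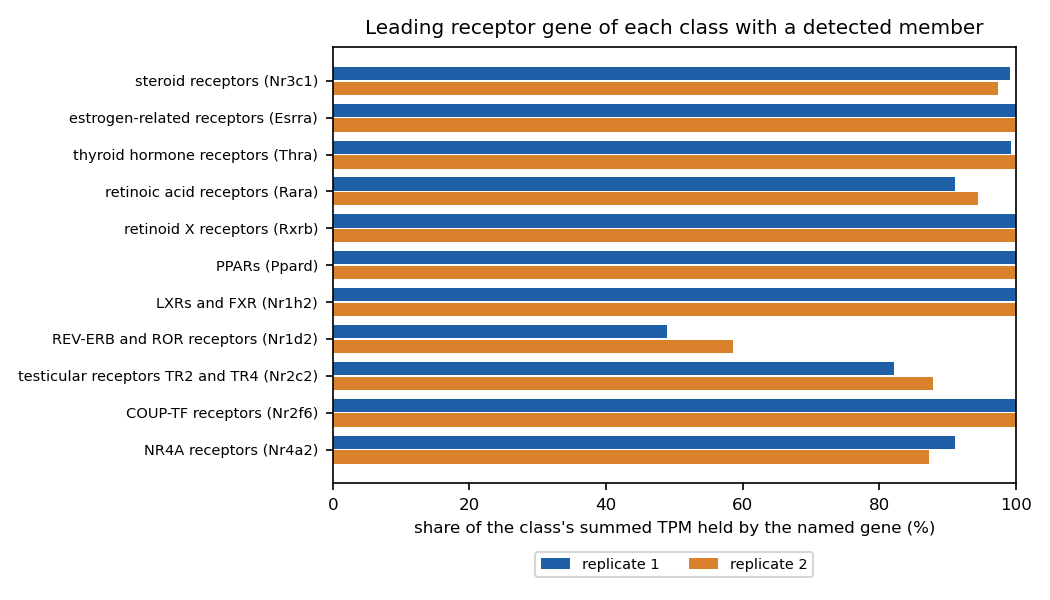
Share of each receptor class's summed TPM held by the gene with its highest mean TPM, in percent, for the 11 classes with a detected member. Blue bars are replicate 1 and orange bars replicate 2. In 8 classes the named gene held at least 90% in both libraries, and the REV-ERB and ROR class was the most even, with Nr1d2 at 49.0% and 58.6% and Nr1d1 ahead of it in replicate 1 at 51.0%.

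The single dominant paralog was the common pattern. Of the 15 classes into which the receptors were sorted, 11 had a detected member, 8 of those had exactly 1, and in 8 the leading gene held at least 90% of the class's TPM in both libraries. The vitamin D and xenobiotic class, the HNF4 class, the tailless-type class and the NR5A, NR6A and NR0B class had no detected member.

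Thyroid hormone and retinoic acid receptors were represented mainly by their alpha genes, which lie close together on chromosome 11. Thra, the gene of thyroid hormone receptor α (98740638 to 98769006, plus strand), had a TPM of 30.1 in replicate 1 against 28.8 in replicate 2 (mean 29.4 ± 0.940, SD, n = 2). Rara, the gene of retinoic acid receptor α (98927818 to 98974942, plus strand), had 17.2 and 25.5, a mean of 21.4 ± 5.83. Nr1d1, the gene of the heme-binding repressor REV-ERBα (98767932 to 98775333, minus strand), had 1.77 and 1.31, a mean of 1.54 ± 0.325. All 3 genes of this stretch, which spans 0.234 Mb and holds 5 other protein-coding genes wholly inside it, were detected, though Thra stood 17 and 21.95 times above Nr1d1.

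The paralogous stretch on chromosome 14 gave a different picture. It spans 1.81 Mb with no other protein-coding gene wholly inside, and of its 3 receptor genes Nr1d2 alone was detected, and that call ends when only transcripts typed protein-coding are counted (0.35 and 0.32). Nr1d2, which encodes REV-ERBβ, had a TPM of 1.70 and 1.90, a mean of 1.80 ± 0.141 (SD, n = 2). Thrb, the beta thyroid hormone receptor gene, had 0.21 and 0.06 from 59 and 12 counts, and Rarb had 0 and 1 counts. Thra therefore held 99.3% and 99.8% of the thyroid receptor signal. The pairing of Nr1d1 with Thra on opposite strands brings an uncertainty, since their annotated exons share 263 bases and the use of strand in counting was not stated. On chromosome 14 the exons of Rarb share 1793 bases with the protein-coding gene Top2b on the other strand, whose TPM was 43.6 and 60.7.

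**Figure D3:**
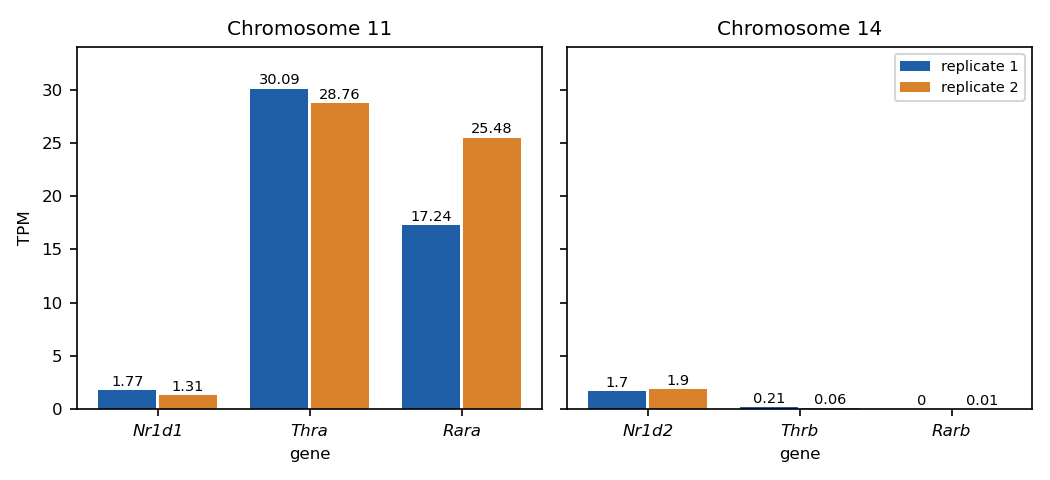
TPM of the receptor genes in the paralogous stretches of chromosome 11 and chromosome 14, with each paralog at the same place in its panel. Blue bars are replicate 1 and orange bars replicate 2, on 1 linear axis. Thra and Rara stand between 17.2 and 30.1, while Thrb and Rarb are at most 0.21.

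The split between the main Thra transcripts bears on what the gene can do. Thra-202 encodes 410 residues, the hormone-binding receptor TRα1. Thra-201 encodes 492 residues, the variant TRα2, which does not bind thyroid hormone. Thra-202 had a TPM of 17.3 and 15.6, and Thra-201 had 12.3 and 12.7. By TPM the first stood at 1.41 and 1.23 times the other, and by counts at 1.28 and 1.12 times, so TRα1 led in both libraries by both measures. Their starts lie 62 bases apart and their ends 3895 bases apart. Thra-202 ends at 98765111, before the stretch of Nr1d1 begins at 98767932, while Thra-201 runs to 98769006. The strand uncertainty from Nr1d1 thus touches Thra-201 and not Thra-202, and its effect on the ratio was not tested.

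Most Rara signal fell to a pair of transcripts with separate starts. Rara-207 had a TPM of 8.49 and 15.1 and Rara-204 had 7.26 and 8.88, a ratio of 1.17 and 1.70. Both encode 462 residues, and their starts lie 2013 bases apart and their ends 780. Rara-202, which encodes 459 residues, held 7.59% and 5.42% of the gene's TPM. The sequence before each start is shown because they differ in composition while both transcripts encode 462 residues, with each CG pair in capitals, 5′ to 3′ from RefSeq on GRCm38.p6. The first (chr11:98937446-98937695, plus strand), whose listed start lies 2 bases from that of Rara-204, held 13 CG pairs. The other (chr11:98939461-98939710, plus strand), whose listed start is that of Rara-207, held 2.
Rara at Rara-204: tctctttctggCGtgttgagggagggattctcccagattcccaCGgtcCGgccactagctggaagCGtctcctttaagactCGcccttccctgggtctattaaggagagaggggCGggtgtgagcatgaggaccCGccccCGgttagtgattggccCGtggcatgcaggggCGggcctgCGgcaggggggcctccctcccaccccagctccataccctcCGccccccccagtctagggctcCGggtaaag
Rara at Rara-207: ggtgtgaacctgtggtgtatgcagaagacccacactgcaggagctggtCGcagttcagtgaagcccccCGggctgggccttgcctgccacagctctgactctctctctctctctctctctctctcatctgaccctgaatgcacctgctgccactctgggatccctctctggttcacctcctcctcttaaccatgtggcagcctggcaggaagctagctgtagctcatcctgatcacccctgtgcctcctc

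The gamma gene Rarg (chromosome 15, 102234938 to 102257517, minus strand) was low, at a TPM of 1.70 and 1.49, a mean of 1.60 ± 0.148 (SD, n = 2). Rara stood 10.1 and 17.1 times above it. Most Rarg signal lay in Rarg-202, of 447 residues, at 97.1% and 80.5% of the gene's TPM, or 84.4% and 65.4% by posterior mean TPM. Rarg-201, of 458 residues, starts 11017 bases away and had 0.05 and 0.19. Genes that make or carry retinoids were mostly low: of 13, 2 were detected, the retinol dehydrogenase gene Rdh10 at 4.22 and 5.65 and the retinaldehyde reductase gene Dhrs3 at 1.16 and 1.30. Stra6, Crabp1 and Aldh1a2 had 0 counts in both libraries. Of 6 fixed retinoic acid receptor targets, Dhrs3 was the only one detected, and Stra6 had 0 counts in both.

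Of the 5 steroid receptors 1 was detected. Nr3c1, the glucocorticoid receptor gene (chromosome 18, 39410545 to 39519421, minus strand), had a TPM of 19.5 in replicate 1 against 19.9 in replicate 2 (mean 19.7 ± 0.240, SD, n = 2). Nr3c2 had 0.17 and 0.51 from 47 and 27 counts, so its order between the libraries differed by unit. The estrogen receptor gene Esr1 had 0 and 1 counts, Esr2 0 in both, and the progesterone receptor gene Pgr 0 and 1. The estrogen receptor part of the Gata1 fusion was not separable in these tables, so the Esr1 row says nothing of the fusion's level. Of 6 fixed estrogen receptor targets, Ctsd and Xbp1 were detected, genes that many cells express.

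By transcript, the glucocorticoid receptor signal was assigned mostly to a partial model. Nr3c1-208, whose annotated 3′ end is incomplete and which codes for 488 residues, held 66.2% and 80.0% of the gene's TPM. Nr3c1-203, the full-length form of 792 residues, had a TPM of 1.79 and 1.5. By expected counts Nr3c1-203 held 31.6% and 24.5%, a larger share, and its model is also the longer of the pair, at 6436 bases against 1891. Nr3c1-208 led by both measures in both libraries.

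Glucocorticoid receptor partners and targets were widely present. All 9 fixed chaperone genes of the steroid receptors were detected, led by Hspa8 at a TPM of 909 and 1123, Fkbp4 at 410 and 426, and Hsp90ab1 at 543 and 173. All 8 fixed glucocorticoid-responsive genes were detected too, with a median mean TPM of 10.3, led by Per1 at 19.2 and 24.96, Klf9 at 19.0 and 21.3 and Tsc22d3 at 22.4 and 16.3. Most of these respond to other signals as well. Of 13 genes for enzymes and carriers of steroid, thyroid and vitamin D ligands only the transporter gene Slc16a10 was detected, at 9.22 and 11.8. Hsd11b1, which activates glucocorticoids, and the deiodinase genes Dio1 and Dio3 had 0 counts in both libraries, as did Cyp19a1 and Cyp27a1.

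Among orphan receptors, Nr2f6 and Esrra were the most abundant. Nr2f6 encodes EAR2, a repressor of the COUP-TF group (chromosome 8, 71374123 to 71381960, minus strand). Its TPM was 76.5 in replicate 1 against 103 in replicate 2 (mean 89.96 ± 19.0, SD, n = 2). Its relatives Nr2f1 and Nr2f2 had 2 and 3 counts and 0 counts, so Nr2f6 held at least 99.97% of the class in each library. The annotated exons of Nr2f6 share 1622 bases with Ocel1 on the other strand, which had a TPM of 43.7 and 53.8, so the level of each is uncertain. The 250 bases before its listed start (chr8:71381953-71382202, minus strand, RefSeq on GRCm38.p6) are shown as the sequence richest in CG of the 5 printed, with 42 CG pairs in capitals and a GC content of 82.4%. Its last 8 bases are annotated as exon.
Nr2f6: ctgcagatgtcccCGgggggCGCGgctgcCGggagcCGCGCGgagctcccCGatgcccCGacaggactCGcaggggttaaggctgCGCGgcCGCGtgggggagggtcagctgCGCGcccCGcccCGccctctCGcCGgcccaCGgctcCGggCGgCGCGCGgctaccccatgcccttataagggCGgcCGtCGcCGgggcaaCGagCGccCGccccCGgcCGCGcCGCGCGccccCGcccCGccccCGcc

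Esrra encodes ERRα, an orphan relative of the estrogen receptors that drives mitochondrial genes (chromosome 19, 6910977 to 6921813, minus strand). It had a TPM of 47.9 and 66.8, a mean of 57.3 ± 13.3 (SD, n = 2), while Esrrb and Esrrg had 0 and 1 counts and 0 and 2 counts. Most of the difference between the libraries lay in a transcript not typed protein-coding. Esrra-204 had 11.5 and 28.8, whereas transcripts typed protein-coding summed to 35.1 and 36.8. The gene shares 73 exonic bases with Trmt112 on the other strand, whose TPM was 246 and 244. Ppargc1b, a coactivator of ERRα, had a TPM of 22.7 and 32.8, and its relative Ppargc1a had 0 counts in both libraries.

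Both testicular receptor genes were detected. Nr2c2, the gene of TR4 (chromosome 6, 92091390 to 92174294, plus strand), had a TPM of 6.88 and 10.8, a mean of 8.84 ± 2.77 (SD, n = 2). Nr2c1, the gene of TR2 (chromosome 10, 94148023 to 94197211, plus strand), had 1.5 in both libraries. TR4 thus stood 4.59 and 7.20 times above TR2 at the RNA level. Nr2c2 shares 4590 exonic bases with Mrps25 on the opposite strand, whose TPM was 15.1 and 7.76, so its level carries that uncertainty.

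The REV-ERB and ROR receptors, which bind the same DNA sites with opposite effects on clock genes, were low. Nr1d1 and Nr1d2 were detected, as given above, and overlapped each other. Rora had 0 counts in both libraries and Rorb had 0 and 3. The leading Nr1d2 model was Nr1d2-202, a transcript typed as a retained intron, at 79.4% and 83.2% of the gene's TPM. Nr1d2-201, which encodes 576 residues, took the rest. By expected counts Nr1d2-202 held less, 56.5% and 62.6%, and Nr1d2-201 held 43.5% and 37.4%. Nr1d2-201 is also the longer model, at 4663 bases against 1680. Of 14 fixed circadian genes 7 were detected, the highest being Tef at 157 and 77.0, Cry2 at 24.3 and 23.5 and Per1. Cry1, Npas2 and Nfil3 had 0 counts in both.

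Of the NR4A receptors, which are induced as immediate early genes, Nr4a2 was detected (chromosome 2, 57106830 to 57124003, minus strand). It had a TPM of 2.87 and 3.45, a mean of 3.16 ± 0.410 (SD, n = 2). Nr4a3 had 0.28 and 0.50, and Nr4a1 had 0 counts in both. Of 8 other immediate early genes 5 were detected, with a median mean TPM of 5.66 over the 8. The highest were Egr1 at 146 and 216, Junb at 167 and 166 and Ier2 at 63.0 in both. The leading Nr4a2 model, Nr4a2-206, is typed as subject to nonsense-mediated decay and held 38.1% and 66.2% of the gene's TPM. Transcripts typed protein-coding summed to 1.71 and 1.17, the reverse of the order between the libraries by gene total.

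The remaining receptors were at or near background. Nr1i3, the gene of the xenobiotic receptor CAR, had a TPM of 0.48 and 0.42, but it shares 3304 exonic bases with Tomm40l on the opposite strand, whose TPM was 53.1 and 52.2. The vitamin D receptor gene Vdr had 1 and 3 counts, Nr5a1 0 and 5 and Nr5a2 0 and 1. Nr1i2, Hnf4a, Hnf4g, Nr2e1, Nr2e3, Nr0b1 and Nr0b2 had 0 counts in both libraries. These encode receptors best known from liver, gut, retina, brain and steroid-producing tissue.

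All 14 detected receptors had at least 2 annotated transcripts. The leading transcript held at least 50% of TPM in both libraries in 10 of them, beside 71.5% of detected protein-coding genes with at least 2 transcripts. The exceptions were Nr1h2, Rxrb, Rara and Nr4a2. The leading transcript was not typed protein-coding in 2, Nr1d2 and Nr4a2, beside 27.2% of those genes. Rxrb-201, of 524 residues, held 38.5% and 48.1%, and the retained-intron model Rxrb-204 held 35.8% and 17.2%. By transcripts typed protein-coding, Rxrb had 138 and 238 and Ppard 123 and 151, so that their libraries overlapped where the gene totals did not. Nr1h2-203, of 443 residues, held 38.4% and 38.6%, with Nr1h2-202 of the same protein length at 15.6% and 13.9%.

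**Figure D4:**
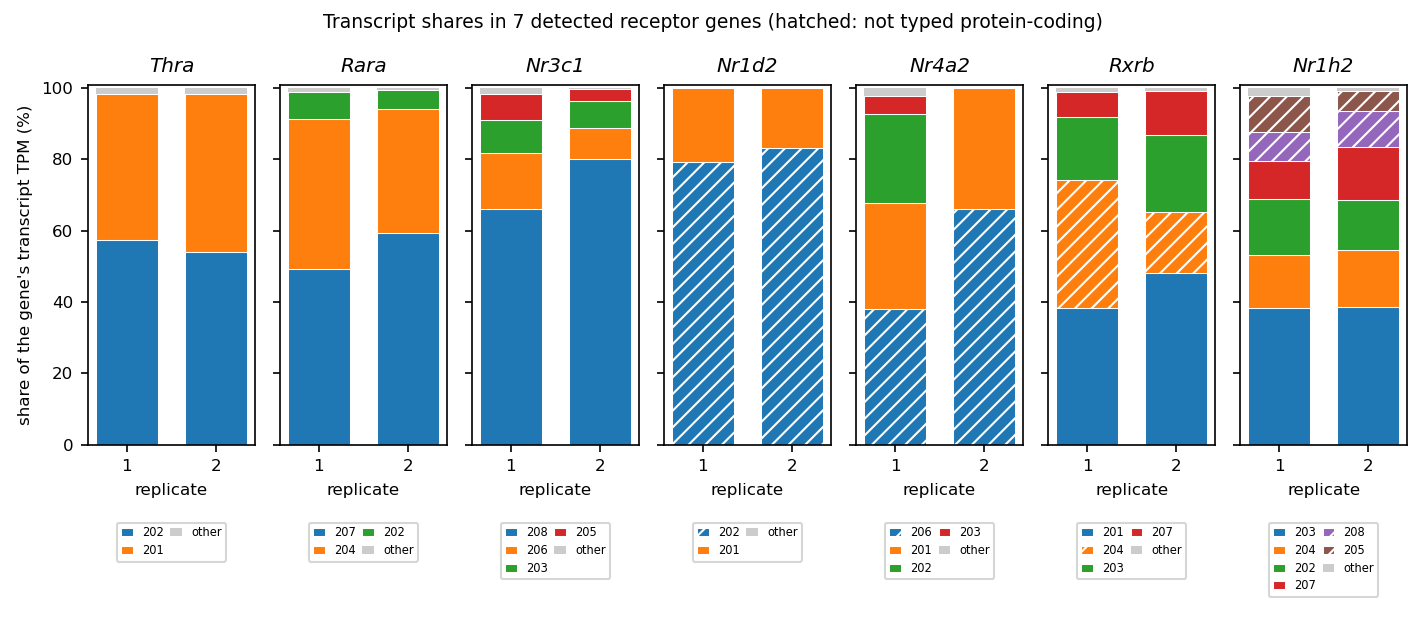
Share of each gene's transcript TPM, in percent, taken by its annotated transcripts in replicates 1 and 2, for 7 detected receptors. Colours are transcripts with at least 5% in a library, grey is the rest, and hatching marks models not typed protein-coding. Thra-202 exceeds Thra-201 in both libraries, and hatched models lead in Nr1d2 and Nr4a2.

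Of the 14 detected receptors 13 lay within 1.5-fold between the libraries by TPM, Nr2c2 being the exception, beside 70.8% of detected protein-coding genes. By TMM-scaled counts 10 did, beside 74.2%, with Nr2c2, Nr2f6, Rxrb and Rara outside. The median SD was 13.6% of the mean, beside 17.6% for all detected protein-coding genes. An exact two-sided binomial test between the libraries, with TMM scaling and Benjamini-Hochberg adjustment over all genes, was run where a gene's counts summed to 10 or more. That test compares these libraries, not conditions. Of the 21 receptors tested, 2 were called (fold of 2 or more, adjusted p under 0.05), beside 11.2% of all genes tested. Both were undetected genes of small counts. Thrb had 59 and 12 counts, or -1.63 as the log2 ratio of the second library to the first (exact binomial test, adjusted p = 0.000147), and Nr1h3 had 18 and 2, a log2 ratio of -2.26 (adjusted p = 0.00916, same test). In edgeR's exact test with a common dispersion, estimated from the same 2 libraries and so not independent of their difference, neither was called, and the adjusted p was 0.612 for Thrb and 0.745 for Nr1h3. By TPM the log2 ratio of Nr1h3 was -0.58, and 3 of its counts were worth a TPM of 0.0597 in replicate 1 and 0.363 in replicate 2.

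None of the detected receptors was called, though 9 of the 14 had an adjusted p under 0.05 by the exact binomial test, which takes counting noise as the only error, beside 78.8% of detected protein-coding genes. At a fold of at least 1.5, 6 of the 21 were called, beside 27.7% of all genes tested. The log2 ratio of largest size among the detected receptors was 0.80, for Nr2c2. Of the 21 receptors tested, 16 had the larger scaled count in replicate 2 and 5 in replicate 1. Scaled by total counts instead, the split was 11 and 10, and the median log2 ratio of all genes moved from -0.02 to -0.23. The median of the tested receptors was 0.21 with TMM scaling and 0.00393 with total counts, and Nr1h2, Thra, Nr1d2, Nr2c1 and Nr1i3 changed direction between the libraries with the scaling.

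Most cofactors through which the receptors act were detected. Of 15 matched coactivator genes 14 were detected, led by the methyltransferase gene Carm1 at a TPM of 119 and 143, the acetyltransferase gene Kat2a at 65.0 and 78.4 and Ncoa6 at 52.7 and 71.8. Of 10 corepressor genes 8 were detected, led by Gps2 at 233 and 231 and Ncor1 at 105 and 115, both parts of the NCoR complex, with the deacetylase gene Hdac3 at 18.0 and 17.8. Of 73 listed partner and target genes tested, 5 were called between the libraries by the exact binomial test, or 6.85%, beside the 11.2% of all genes. Hsp90ab1, Hsp90aa1 and Dnaja1 were lower in replicate 2, with log2 ratios of -1.41, -1.04 and -1.02. Dbp (1.03) and Hr (1.27, from 21 and 33 counts) were higher there. Ppargc1b and these 5 were singled out after their values were seen.

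The start sites of detected receptors had a higher median content of CG pairs than those of undetected ones, and the same held over all genes. RefSeq windows of 300 bases, from 250 before to 50 after each listed start, matched 42 of the 46 receptors, with 63 windows. Nr3c1, Thra, Hnf4g and Nr5a1 had no entry. The median ratio of observed to expected CG pairs was 0.816 for 12 detected receptors (0.404 to 1.04) and 0.521 for 30 undetected ones (0.109 to 1.05). Over all protein-coding genes it was 0.803 for detected and 0.328 for undetected genes. Receptors of both kinds overlapped widely. Nr1d1, Rarg and Rara were detected with ratios of 0.404, 0.420 and 0.422, while Rora, at 1.05, had 0 counts. Each ratio is a median over the gene's listed starts, which ran from 0.198 to 0.609 for Rara and from 0.335 to 0.504 for Rarg.

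**Figure D5:**
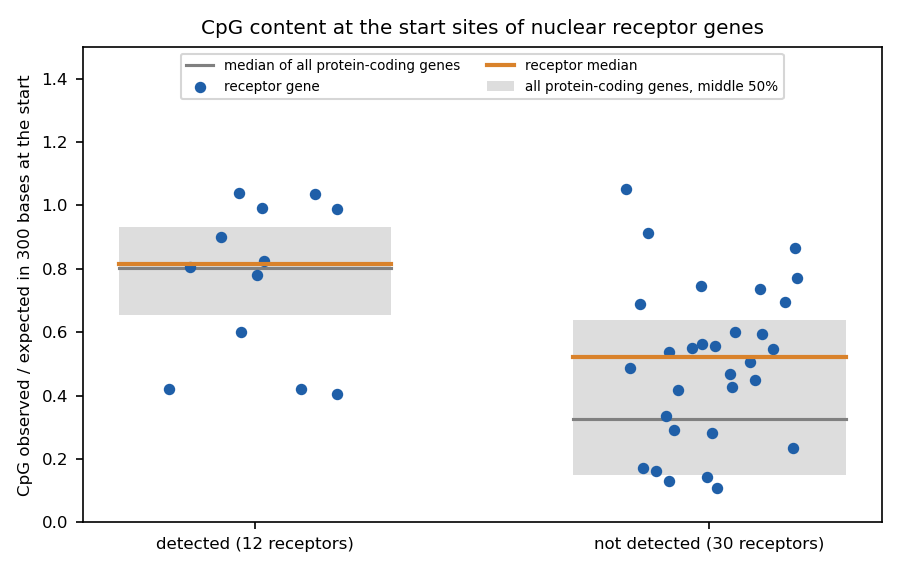
Observed over expected CG pairs in 300 bases at the start site, 1 point per receptor gene (median over its listed starts), for 12 detected and 30 undetected receptors. Orange lines are receptor medians, grey boxes the middle 50% of all protein-coding genes of the same kind and grey lines their medians. The detected receptors' median of 0.816 lies near that of all detected genes, 0.803.

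Motifs were searched on both strands in the same windows. The GATA forms AGATAA and AGATAG, and TGATAA and TGATAG, were present in 2 of the 12 detected receptors, Nr2c1 and Rarg, and in 11 of the 30 undetected ones, including Nr1h4, Esr1 and Hnf4a. They occurred in 29.8% of all windows of this length and, counting a gene once if any of its windows held one, in 28.6% of all protein-coding genes. That share was 20.2% for detected and 34.4% for undetected protein-coding genes. The receptor half-site AGGTCA was present in 3 of the 12, Nr1d2, Rara and Rarg, and in 8 of the 30, and occurred in 16.3% of all windows and 16.5% of protein-coding genes, 13.96% of the detected and 18.2% of the undetected. AGGTCA and the GATA forms were counted independently of any overlap, and a match describes the sequence only.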

How the data were processed

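The data were polyA RNA-seq of 2 libraries of 1 group, with 1 gene table and 1 transcript table per library. Per the notes deposited with the files, values came from alignments to the transcriptome on mm10 with annotation M4. The aligner and the quantifier are not given in the sources used here, nor is the use of strand in counting. The deposited expected counts are the authors' estimates of fragments per gene or transcript, not normalized and not always whole. The deposited TPM and FPKM values are scaled by effective length and library total by the authors, with posterior means beside them. The interval bounds of TPM were deposited by the authors as scores whose level is not stated. The authors' deposited percent of each transcript in its gene was not used, and shares were computed anew from transcript TPM.

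Receptors were matched by symbol in GENCODE M21 on GRCm38, the assembly also named mm10, and 42462 of 43346 gene rows matched. A further 26345 rows named by no gene held 2 and 0 counts and were left out. Promoter sequences came from RefSeq on GRCm38.p6. Detected meant at least 1 TPM in each library. Genes with at least 10 counts over both libraries were tested between them on rounded expected counts by an exact two-sided binomial test (R 4.3.3). It was run against TMM-scaled library sizes (edgeR 4.0.16), with Benjamini-Hochberg adjustment. Calls needed a fold of 2 or more and an adjusted p under 0.05, and log2 ratios carried a prior count of 0.5. The counts of the libraries differed by far more than sampling noise (chi-square of 293 per degree of freedom), so they are not a single library given 2 entries, which does not show separate cultures. The test was tested on simulated data. Alternatives covered thresholds, units, scalings (DESeq2 1.42.0 among them), filters, an edgeR test with the pair's own spread, and the omission of each library. Errors are SDs over 2 libraries. Counting error was not small for the 4 lowest detected receptors, Nr1d1 having 101 counts in replicate 2 (95% exact Poisson interval 82.3 to 123, scipy 1.17.1).

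The receptors and the lists of partner, target and marker genes were chosen with earlier results of these data known. The naming rule covered all 46 receptors, the 3 highest members of each list and any at 0 counts in both libraries, and leading transcripts. The coactivator gene Prmt1 was not analysed here, and some list genes that the rule covers are not reported here.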

Additional observations from a re-analysis of the deposited data

How the results depend on the processing

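The count of 14 detected receptors was 15 at a TPM of at least 0.5, 10 at 2, 20 by at least 10 expected counts in both libraries, 14 by FPKM of at least 1, and 15 by posterior mean TPM. With 1 library left out it ran from 14 to 15, the gain being Nr6a1 without replicate 2. By transcripts typed protein-coding, an alternative chosen after seeing the data, it was 13. The count of 10 receptors whose leading transcript held at least 50% of TPM was 12 by expected counts and 10 by posterior mean TPM, and ran from 10 to 12 with 1 library left out. The 2 receptors called between the libraries, Thrb and Nr1h3, were called with total counts, DESeq2 size factors and posterior mean counts as well. The shares of all genes called were then 14.2%, 10.9% and 11.1%. With no filter Nr5a1, with 0 and 5 counts, joined them (8.30% of all genes called). With at least 50 counts in each library 0 of 15 receptors were called by the exact binomial test, beside 7.87% of all genes. Thrb and Nr1h3 were not called there since they fall below that filter. An unadjusted p under 0.05 was held by 9 of the 15, beside 7084 of the 8981 genes tested. At a fold of at least 1.5 the count was 6, adding Rxrb, Nr2f6, Nr2c2 and Rara, with 27.7% of all genes called. By edgeR's exact test with the common dispersion of the pair 0 were called, beside 103 of all 11278 genes tested, or 0.913%. In that test 2 of the 21 receptors had an unadjusted p under 0.05, beside 695 of all genes tested. The cause of these differences was not tested beyond the filter itself. The difference in median observed over expected CG pairs between detected and undetected receptors was 0.295, and 0.243 with the first listed start of each gene, also chosen after seeing the data. No paired analysis was possible because the series holds 1 group. With 2 libraries the precision of each level rests on 1 degree of freedom, and transcripts of low counts are the least certain.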
